A study of Paxillus involutus with 18 samples.

Results

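Peroxide-making and peroxide-using oxidoreductases of *Pa. involutus* were followed as 4 isotigs, the assembled transcripts that the arrays measure, out of 12214. They are the glyoxal oxidase isotigs paxillus_3881 and paxillus_3882, the haem peroxidase paxillus_5582 and the aromatic peroxygenase paxillus_10214. All 4 were found on the arrays, each with 10 probes, and none was lost to a filter. The enzyme names are those that the study gave to the isotigs, since the array files hold no annotation. The study chose them for a rise on an organic matter extract, so their changes on the extracts against the control medium are given here as a description, with no test.

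Glyoxal oxidase is a copper enzyme, best known from the white-rot fungus *Ph. chrysosporium*, that oxidises small aldehydes with oxygen and releases hydrogen peroxide. Haem peroxidases spend hydrogen peroxide to oxidise other compounds, often phenols. Aromatic peroxygenases carry a haem bound through a thiolate and transfer oxygen from peroxide to aromatic rings and other substrates. In wood-decaying fungi hydrogen peroxide also reacts with ferrous iron in the Fenton reaction, which gives hydroxyl radicals.

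The cultures were wild-type mycelium of the single strain ATCC 200175, grown axenically on glass beads for 9 days in the mineral medium MMN and then held without N for 24 h. They then spent 7 days in a hot water extract of forest litter (FH), a hot or a cold water extract of maize compost (MH and MC), carboxy methyl cellulose (CMC), or MMN as the control. Each medium had 3 arrays per slide: FH and MH shared slide 1 with MMN, and MC and CMC shared slide 2 with further MMN arrays. The extracts and CMC were supplemented with glucose, which MMN also contains. Levels are deposited RMA values on the log2 scale, so a difference of 1 is 2-fold, and they are relative to the other isotigs of the same array. In RNA of whole mycelium, fewer expressing hyphae and less RNA per hypha cannot be told apart. Array medians lay between 11.45 and 11.47, random control probes between 3.69 and 3.85, and the 4 isotigs between 10.82 and 14.01. MC replicate 3 carries a free-text description that names MH, whereas the title and the medium field give MC, so it stayed in MC. Some of the values that rest on it, not all, are also given without it.

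Glyoxal oxidase, the peroxide maker, stood above MMN in all 4 organic media. On paxillus_3881 the arrays gave 13.54, 13.58 and 13.51 on FH, 13.88, 13.75 and 13.73 on MH, against 12.59, 12.35 and 12.85 on MMN of slide 1. On slide 2 they gave 13.68, 13.55 and 13.65 on MC and 13.71, 13.55 and 13.54 on CMC, against 12.33, 12.01 and 12.65 on MMN. Every array of an organic medium lay above every MMN array of its slide. The sister isotig paxillus_3882 gave 13.67, 13.50 and 13.52 on FH and 13.71, 13.89 and 13.77 on MH, against 12.71, 12.21 and 12.92 on MMN of slide 1. It gave 13.71, 13.68 and 13.53 on MC and 13.57, 13.62 and 13.61 on CMC, against 12.43, 12.17 and 12.85 on MMN of slide 2. Here too no array of an organic medium overlapped with MMN. Of all isotigs, 56.1% did not overlap with MMN in either direction on FH, 75.7% on MH, 66.5% on MC and 64.5% on CMC. The group means of paxillus_3882 ran from 13.56 on FH to 13.79 on MH in the organic media, against 12.61 and 12.48 on MMN. Ordered by the change against MMN of the slide, paxillus_3881 ran from MC (1.30) over CMC (1.27) and MH (1.19) to FH (0.94), and paxillus_3882 from MH (1.18) over MC (1.16) and CMC (1.12) to FH (0.95). The 95% confidence interval of the difference between neighbours in these orders held 0 throughout.

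Haem peroxidase paxillus_5582, a peroxide user, had the widest change of the 4 isotigs in every medium. Its arrays gave 12.21, 12.35 and 12.14 on FH and 12.77, 12.85 and 12.80 on MH, against 10.88, 11.01 and 11.19 on MMN of slide 1. On slide 2 they gave 12.87, 12.90 and 13.21 on MC and 12.64, 12.71 and 12.78 on CMC, against 11.09, 10.82 and 11.34 on MMN. The media were graded here, with FH lowest. No array of an organic medium overlapped with MMN, as for the shares of all isotigs given above. Among all 12214 isotigs, ordered from the largest rise against MMN to the largest fall, it had rank 68 on FH, 60 on MH, 39 on MC and 25 on CMC.

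Aromatic peroxygenase paxillus_10214, the other peroxide user, stood out on MC. Its arrays gave 13.06, 12.94 and 13.18 on FH and 13.27, 13.32 and 13.36 on MH, against 12.90, 12.62 and 12.92 on MMN of slide 1. They gave 13.80, 13.76 and 14.01 on MC and 12.55, 12.70 and 12.64 on CMC, against 12.58, 12.51 and 12.71 on MMN of slide 2. The CMC arrays lay within the range of the MMN arrays, while all MC arrays lay at least 1.05 log2 units above the highest MMN array. On FH the gap to the highest MMN array was 0.03. In the ordering from the largest rise to the largest fall it had rank 179 on MC, and rank 1994 on FH, 1868 on MH and 4473 on CMC.

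**Figure D1:**
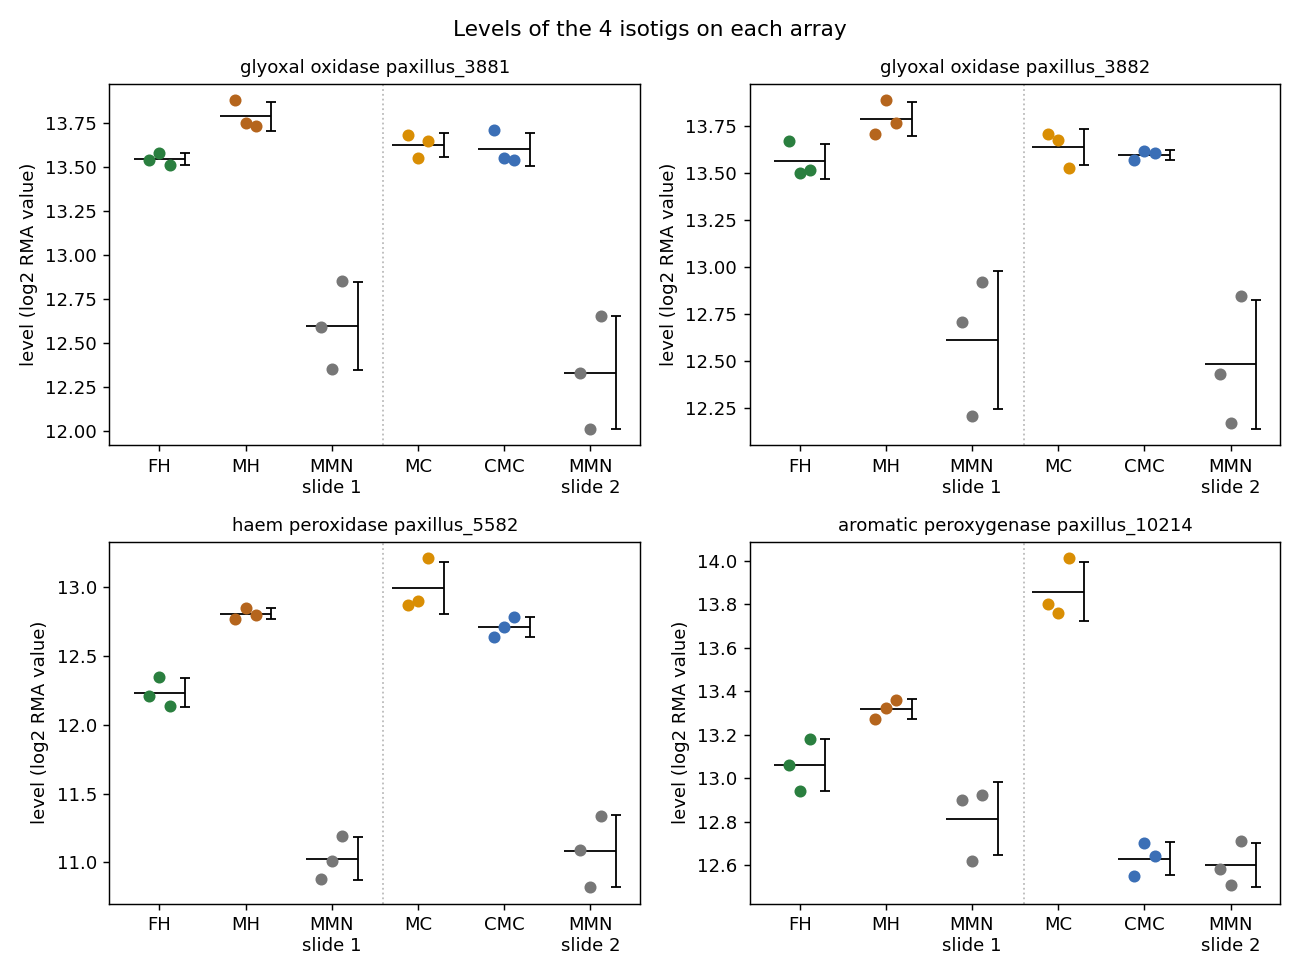
Levels of the 4 isotigs as log2 RMA values on the vertical axis, for each of the 18 arrays, grouped by medium on the horizontal axis, with slide 1 left and slide 2 right of the dotted line. Points are arrays, horizontal bars are means and the bars with caps are the SD (n = 3). The glyoxal oxidase isotigs and the haem peroxidase are higher on all 4 organic media than on MMN, and the aromatic peroxygenase on CMC lies at the level of MMN, with means of 12.63 on CMC and 12.60 on MMN of slide 2.

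Set against MMN of their slide, the changes that the study used to choose these isotigs were as follows. On FH 1 of the 4 isotigs was over 2-fold higher, on MH 3 and on MC 4, where 0.966%, 4.5% and 2.82% of all isotigs were. For the haem peroxidase the log2 fold change was 1.20 on FH, while MH gave 1.78 and MC gave 1.91 (standard error 0.11). Those of the aromatic peroxygenase were 0.25, 0.50 and 1.26, with a standard error of 0.09. The mean of both glyoxal oxidase isotigs changed by 0.95, 1.18 and 1.23 on the log2 scale. The value just inside the 2-fold threshold was that of paxillus_3882 on MC, at 1.16, and the value just outside was 0.95 for the same isotig on FH. The arrays of the extract and of MMN did not overlap for any of the 4 isotigs, as for 56.1% of all isotigs on FH, while 75.7% did not on MH and 66.5% on MC. The peroxygenase exceeded 2-fold on MC alone. Without MC replicate 3 the changes on MC were 1.29 for paxillus_3881, 1.21 for paxillus_3882, 1.81 for the haem peroxidase and 1.18 for the peroxygenase. Without MMN replicate 3 of slide 1 both glyoxal oxidase isotigs passed 2-fold on FH, at 1.07 and 1.10, and without MMN replicate 2 of slide 1 paxillus_3882 was under it on MH, at 0.97.

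CMC was not among the media by which the study chose these isotigs, though it shares its 3 MMN arrays with MC. Low values on those MMN arrays would favour both the choice by MC and a rise on CMC. The tests on CMC are therefore not independent of the choice, and the share of all isotigs is over isotigs not so chosen. On this cellulose derivative the peroxide maker and the haem peroxidase rose and the aromatic peroxygenase did not pass the test. A limma model was fitted to all isotigs, and an isotig was called when its Benjamini-Hochberg adjusted p was below 0.01 with more than a 2-fold difference. By this rule 3 of the 4 isotigs were called higher on CMC and none lower, where 1.66% of all isotigs were called higher. The CMC and MMN arrays did not overlap for these 3, as for 64.5% of all isotigs. The haem peroxidase paxillus_5582 had a mean of 12.71 ± 0.0662 on CMC and 11.08 ± 0.256 on MMN (SD, n = 3 each), which is 3.09-fold (95% confidence interval of the log2 fold change 1.39 to 1.86, adjusted p = 2.2e-09). Glyoxal oxidase paxillus_3881 had a mean of 13.60 ± 0.0954 on CMC and 12.33 ± 0.324 on MMN (SD, n = 3 each), a log2 fold change of 1.27 (interval 1.01 to 1.54, adjusted p = 2.7e-07). For paxillus_3882 the log2 fold change was 1.12 (interval 0.80 to 1.43, adjusted p = 9.1e-06). Without MMN replicate 2 of slide 2 it was 0.96, under the 2-fold threshold. The errors behind these adjusted p-values pool all 6 groups, and these 3 isotigs were spread more widely on MMN than on CMC. With only the CMC and MMN arrays in the limma fit, all 3 adjusted p-values were larger, the largest being 2.7e-04. The peroxygenase paxillus_10214 averaged 12.63 ± 0.0756 on CMC and 12.60 ± 0.0979 on MMN (SD, n = 3 each). Its log2 fold change was 0.03 with an interval of -0.15 to 0.21 (adjusted p = 0.76), so a change as large as that on MC lay outside the interval.

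The 4 organic media were then compared with each other in 6 pairs, to ask whether the levels of the isotigs differ between media. By the study's account the extracts also varied in C, N and other nutrients, and in pH at the end. These cannot be told apart here from the kind of organic matter. Media of the same slide were compared directly, and media of different slides through what each changed relative to MMN on its slide. Adjusted p-values are over all isotigs within a pair. An extract on which an isotig was over 2-fold helped to choose that isotig. Where such an extract was set against CMC, or against an extract on which the isotig was not over 2-fold, the difference is therefore given as a description with its interval and no p. This left 10 tests.

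The litter and compost extracts made with hot water differed for the haem peroxidase, which averaged 12.81 ± 0.0446 on MH and 12.23 ± 0.106 on FH (SD, n = 3 each). It was 1.49-fold higher on MH (interval of the log2 fold change 0.34 to 0.81, adjusted p = 2.7e-04 from limma). Of the 2 isotigs tested in this pair it was the 1 that passed an adjusted p of 0.01, where 22% of all isotigs passed it as higher on MH. The glyoxal oxidase isotigs, described only, differed by 0.25 (interval -0.02 to 0.51) and 0.23 (interval -0.09 to 0.54) on the log2 scale, MH minus FH. These intervals pool the spread of all 6 groups, and both isotigs were spread more widely on MMN than on MH or FH. The peroxygenase was tested and differed by 0.26 (interval 0.08 to 0.44, adjusted p = 0.016), and it passed the threshold without FH replicate 3, at 0.31 and an adjusted p of 0.0097. All 3 MH arrays lay above all 3 FH arrays for each of the 4 isotigs, and 64.8% of all isotigs did not overlap between these media.

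Between the compost extract made with cold water and the litter extract, the change of the haem peroxidase was larger by 0.71 on the log2 scale on MC, at 1.91 on MC and 1.20 on FH (interval of the difference 0.38 to 1.04, adjusted p = 0.0032 from limma). Of all isotigs, 6.04% passed the adjusted p as higher on MC than on FH. The haem peroxidase difference was under 2-fold. It no longer passed the adjusted p without FH replicate 3, at 0.66 and an adjusted p of 0.011, or without MC replicate 3, at 0.60 and the same adjusted p. The glyoxal oxidase isotigs differed by 0.35 (interval -0.02 to 0.73) and 0.21 (interval -0.24 to 0.65). The change of the peroxygenase was 1.26 on MC and 0.25 on FH, a difference of 1.01 (standard error 0.12, interval 0.75 to 1.26), or 0.93 without MC replicate 3.

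Cold and hot water extracts of maize compost did not pass the test for the haem peroxidase, with changes of 1.91 on MC and 1.78 on MH and a difference of 0.14 (interval -0.20 to 0.47, adjusted p = 0.52 from limma). The glyoxal oxidase isotigs differed by 0.11 (interval -0.27 to 0.48, adjusted p = 0.67) and -0.02 (interval -0.47 to 0.43, adjusted p = 0.95), MC minus MH. The sign of these small differences depended on single arrays: they ran from -0.06 to 0.27 and from -0.17 to 0.18 as each array was left out in turn. The peroxygenase changed by 1.26 on MC and 0.50 on MH, a difference of 0.75 (standard error 0.12, interval 0.50 to 1.01), or 0.68 without MC replicate 3. None of the 3 tested isotigs passed the adjusted p, and 21.3% of all isotigs did in either direction.

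CMC and MC lie on the same slide, and their differences are a description for all 4 isotigs. The glyoxal oxidase isotigs had means of 13.60 on CMC and 13.63 on MC for paxillus_3881, and 13.60 on CMC and 13.64 on MC for paxillus_3882, and their arrays overlapped. The intervals of the difference were -0.29 to 0.24 and -0.36 to 0.28. The haem peroxidase was 0.29 lower on CMC on the log2 scale (interval -0.52 to -0.05), without overlap of the arrays as for 42.2% of all isotigs, and without MC replicate 3 the difference was -0.18. The peroxygenase was 12.63 ± 0.0756 on CMC and 13.86 ± 0.134 on MC (SD, n = 3 each), a log2 fold change of -1.22 (standard error 0.09, interval -1.40 to -1.04), or -1.15 without MC replicate 3.

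Against the hot water extract of maize compost, the peroxygenase was the 1 isotig tested, and it was lower on CMC. Its change was 0.03 on CMC and 0.50 on MH, and the difference was -0.47 (interval -0.73 to -0.22, adjusted p = 0.0058 from limma), where 10.5% of all isotigs passed as lower on CMC than on MH. The difference was under 2-fold, and the pass at the adjusted p was lost when any of 7 arrays was left out. These were MMN replicate 2 of slide 1, MH replicate 2 or 3, MMN replicate 1 or 3 of slide 2, and CMC replicate 1 or 3. The differences were then -0.37 to -0.48, with adjusted p-values of 0.011 to 0.019. The pass was also lost after a repeated quantile normalization, at -0.39 and an adjusted p of 0.014. Against FH none of the 3 isotigs tested passed in the limma fit, where 2.5% of all isotigs did in either direction, and 0 of the 3 had an unadjusted p under 0.05. With MMN averaged per number over both slides the peroxygenase did pass, with a difference of -0.43 (adjusted p = 0.0012) in place of -0.22 (interval -0.47 to 0.04, adjusted p = 0.36). The haem peroxidase, described only, changed by 1.63 on CMC and 1.20 on FH (difference 0.42, interval 0.09 to 0.75). Its difference of CMC minus MH, also described only, was -0.15 (interval -0.48 to 0.18). The glyoxal oxidase isotigs differed from MH by 0.08 and -0.06 and from FH by 0.33 and 0.17 on the log2 scale, with all 4 intervals across 0.

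**Figure D2:**
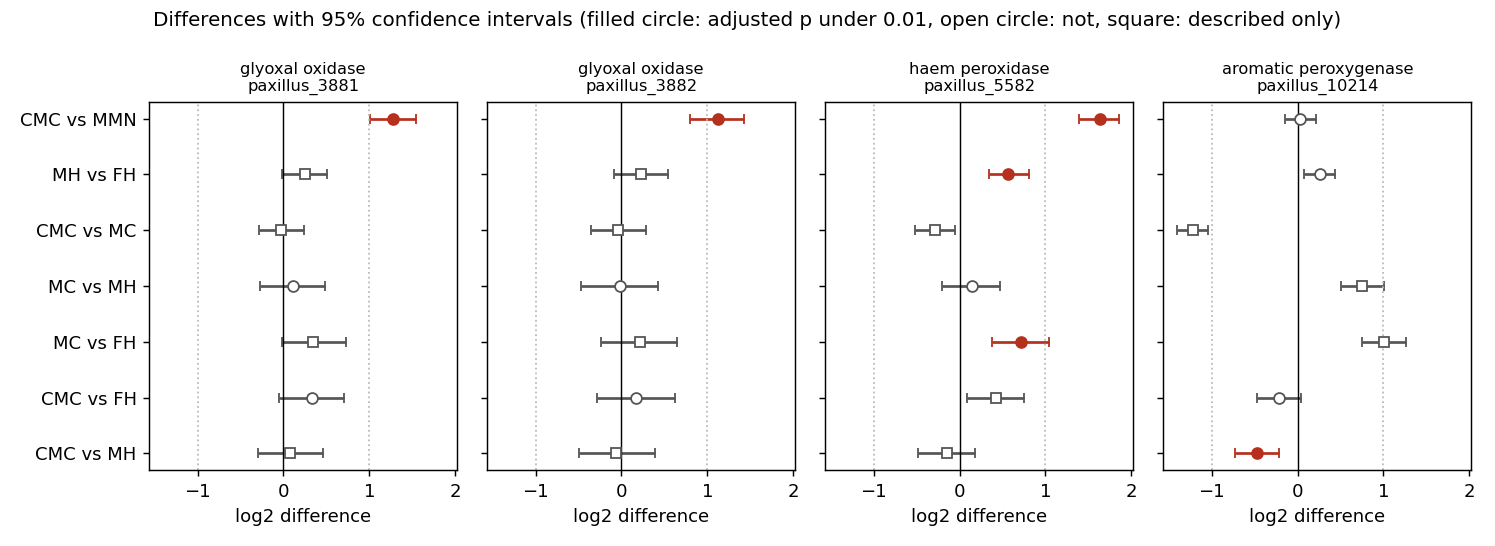
Differences on the log2 scale (horizontal axis) for CMC against MMN and the 6 pairs of media (vertical axis), each as the group named before "vs" minus the group named after it, with 95% confidence intervals from limma. Filled circles passed an adjusted p of 0.01 over all isotigs, open circles did not, squares are pairs given as a description, and dotted lines mark 2-fold. Both glyoxal oxidase isotigs passed in CMC against MMN and in neither of the pairs of media in which they were tested, while the haem peroxidase also passed in MH against FH and in MC against FH.

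Makers and users were also set side by side within each medium. The change of the haem peroxidase exceeded the mean change of the glyoxal oxidase isotigs by 0.26 on FH, 0.59 on MH, 0.69 on MC and 0.43 on CMC on the log2 scale. On single arrays this excess was 0.18 to 0.39 on FH, 0.55 to 0.62 on MH, 0.50 to 0.95 on MC and 0.33 to 0.52 on CMC, each taken against the mean of the MMN arrays. The excess on FH depended on the MMN arrays of slide 1, with 0.16 without replicate 1, 0.41 without replicate 2 and 0.20 without replicate 3, and on the other media it was 0.50 to 0.75 on MH, 0.56 to 0.78 on MC and 0.39 to 0.49 on CMC as each array was left out in turn. The change of the peroxygenase was below that of glyoxal oxidase by 0.70 on FH, by 0.68 on MH and by 1.16 on CMC, and on MC the difference was 0.03, with -0.09 to 0.14 as each array was left out in turn. These differences were not tested.

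The changes of both glyoxal oxidase isotigs were close to each other. Their levels were each summarised from 10 probes and are not set against each other, but how their difference varied from array to array can be followed. Over the 18 arrays the difference of paxillus_3881 minus paxillus_3882 had a range of 0.36 on the log2 scale. The fold changes of both isotigs against MMN differed by 1.10-fold on MC and 1.11-fold on CMC, with the larger change in paxillus_3881, and by at most 1.01-fold on FH and MH. Whether both isotigs share probe sequence was not examined, so they may not be separate measurements. Counts and medians over the isotigs may therefore hold the same gene more than once.

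**Figure D3:**
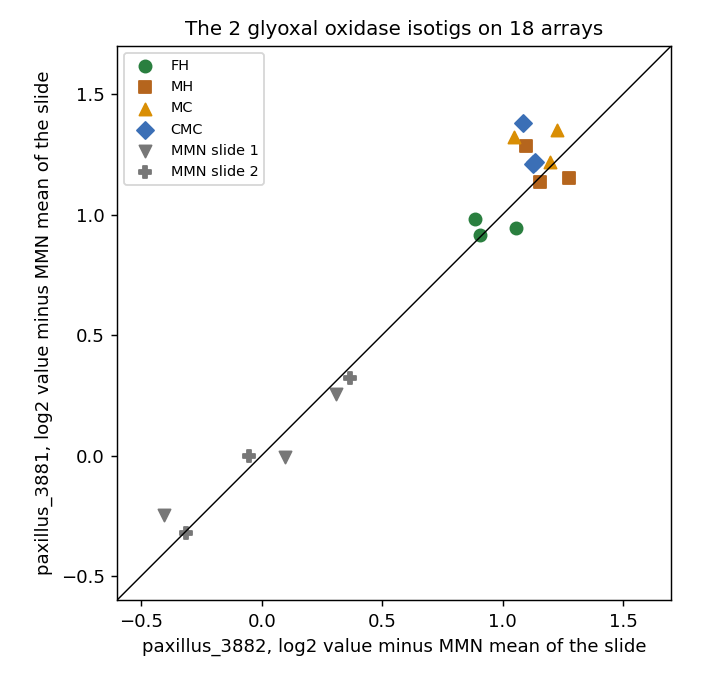
Change of paxillus_3881 (vertical axis) against that of paxillus_3882 (horizontal axis) on the 18 arrays, both as the log2 RMA value minus the MMN mean of the slide, with the line of equal change. The arrays of FH, MH, MC and CMC lie near the line, apart from the MMN arrays, and the mean changes on CMC are 1.27 and 1.12.

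For the peroxide maker the arrays of MMN were spread more widely than those of the organic media. This was not tested, and the 6 MMN arrays may hold only 3 cultures, since both slides carry the same replicate numbers. The SD within groups was 0.0727 for paxillus_3881 over the 4 organic media and 0.291 over MMN, a ratio of 4 for MMN over the organic media. For paxillus_3882 it was 0.0822 over the organic media and 0.353 on MMN, for the haem peroxidase 0.115 and 0.212 and for the peroxygenase 0.0995 and 0.137. Of all isotigs, 97.7% had a smaller SD on MMN than paxillus_3881 and 98.9% a smaller one than paxillus_3882, while 41.2% and 54.9% did on the organic media. The limma errors rest on the SD over all 6 groups, which was 0.178 for paxillus_3881.

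For glyoxal oxidase the order of the MMN arrays was the same on both slides. Replicate numbers 1 to 3 recur on the MMN arrays of slide 2, and equal numbers were read as the same culture, which the labels do not state outright. Replicate 3 gave the highest level on both slides for each of the 4 isotigs. For paxillus_3882 the means over both slides were 12.57, 12.19 and 12.88 for replicates 1, 2 and 3, a range of 0.69, and the same number differed between slides by at most 0.29. For paxillus_3881 the range was 0.58 and the largest gap between slides 0.34. The peroxygenase had a range of 0.25 and a gap of up to 0.32. The mean difference of slide 2 minus slide 1 on MMN was -0.27 for paxillus_3881, -0.13 for paxillus_3882, 0.06 for the haem peroxidase and -0.21 for the peroxygenase. The differences between media of different slides are corrected by these MMN arrays. With MMN averaged per number over both slides, which removes this correction, the peroxygenase difference of MC and FH was 0.79, and that of paxillus_3881 between MC and MH was -0.16 in place of 0.11.

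**Figure D4:**
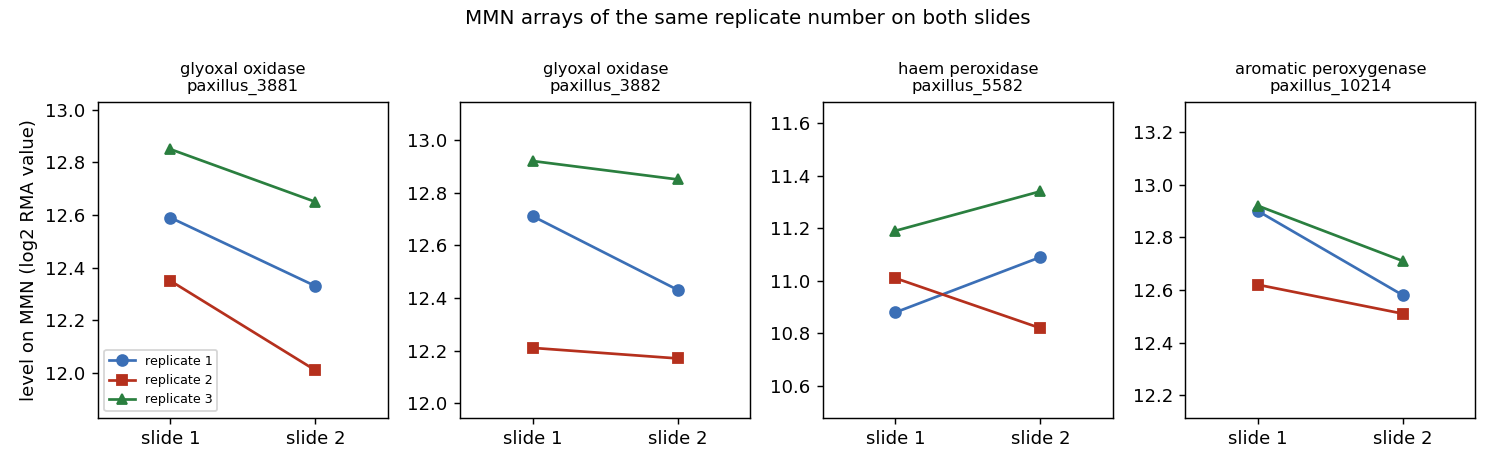
Level of each isotig on MMN (vertical axis, log2 RMA value, each panel spanning 1.2 units) on slides 1 and 2, with arrays of the same replicate number joined. For both glyoxal oxidase isotigs replicate 2 is lowest and replicate 3 highest on both slides, and for the haem peroxidase and the peroxygenase replicate 3 is highest on both.

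Other oxidoreductases that the study names for these substrates give the surroundings of the 4 isotigs. The list holds 15 isotigs, namely 6 laccases, 3 tyrosinases, 3 cytochrome P450 monooxygenases, a catechol dioxygenase and 2 ferric reductases, which act on phenols and other aromatic compounds or reduce ferric iron. They too were chosen with results on the extracts known, though not all 15 were over 2-fold on an extract here. Their differences between an extract and another medium are therefore a description, and CMC shares its MMN arrays with MC. On CMC against MMN the median log2 fold change was 1.19 for the 4 isotigs, against 0.75 for the 15 and -0.07 for all isotigs. Of the 15, 11 were higher at an adjusted p under 0.01 and none lower, where 19% of all isotigs were higher, and 4 of the 11 were over 2-fold. Laccase paxillus_8102 had the largest rise, 1.53 (adjusted p = 3.6e-10 from limma), and the cytochrome P450 monooxygenase paxillus_3631 the smallest difference, 0.03 (adjusted p = 0.81). Between CMC and MC the median was -0.16 for the 4 isotigs, against -0.47 for the 15 and 0.01 for all isotigs, and the 15 ran from -2.14 for tyrosinase paxillus_1195 to 0.45 for laccase paxillus_4041. Between MH and FH the median was 0.25 for the 4 isotigs, against 0.60 for the 15 and -0.02 for all isotigs, and the 15 ran from -0.42 for laccase paxillus_3452 to 1.34 for the cytochrome P450 monooxygenase paxillus_2772.

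The likeness of other isotigs was measured as the root mean square difference over the 18 arrays, after the MMN mean of the slide was taken from each value. The isotig nearest to glyoxal oxidase was paxillus_7073, at 0.114, with changes of 1.12 on FH, 1.26 on MH, 1.15 on MC and 1.20 on CMC. Nearest to the haem peroxidase was paxillus_1601, at 0.128, with changes of 1.28, 1.97, 1.90 and 1.75 in the same media. Nearest to the peroxygenase was paxillus_741, at 0.110, with 0.14, 0.43, 1.42 and 0.08. The median isotig lay at 1.01, 1.41 and 0.634 from the 3 profiles. The files pair these isotigs with no gene. Of the 15 other oxidoreductases, laccase paxillus_8102 was nearest to the haem peroxidase, at 0.182 and rank 6 of 12210 isotigs. The cytochrome P450 monooxygenase paxillus_3633 was nearest to the peroxygenase, at 0.148 and rank 5, and ferric reductase paxillus_2317 was nearest to glyoxal oxidase, at 0.253 and rank 117. Among the 4 isotigs, glyoxal oxidase and the haem peroxidase were 0.444 apart, glyoxal oxidase and the peroxygenase 0.632, and the haem peroxidase and the peroxygenase 0.966.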

How the data were processed

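Total RNA of mycelium was hybridised to 18 1-colour NimbleGen arrays. The authors deposited log2 values made by robust multi-array average (RMA), which corrects the background, normalizes between arrays and summarises the probes of an isotig. No source used here gives the RMA software version. The log base is not stated and was taken as 2, since with base e between 63.5% and 66.3% of isotigs per array would exceed what a 16-bit scanner can record. The series table and the array files held equal values (largest difference 0). The row of 10000 random probes was left out.

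Groups were taken from the sample titles. limma 3.58.1 (lmFit, eBayes) in R 4.3.3 was fitted to 12214 isotigs with 6 group means (12 residual and 5.35 prior degrees of freedom), and the number of arrays limits the precision. P-values measure the spread between arrays that the labels call biological replicates. The thresholds, an adjusted p of 0.01 and 2-fold, are those the study states. On simulated data for CMC against MMN with 12214 isotigs, 98% of isotigs raised by 1.5 on the log2 scale were called, and 100% of those raised by 2. The simulated arrays were independent and had the same SD in all groups, unlike the MMN arrays here. No change under 1.5 was simulated, so the recovery of smaller changes, such as those of glyoxal oxidase on CMC, is not known.

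All 4 isotigs were fitted in all pairs of media. P-values of pairs that set an extract which chose an isotig against a medium which did not are not printed, a rule applied after the values were seen. The values recomputed under alternatives include these pairs as fitted. The 4 isotigs, the list of 15 and the alternatives were chosen with earlier results of these arrays known. Named isotigs are the 4, the extremes of the list of 15 in a comparison, and the isotig nearest to each profile. MMN arrays of the same number correlated across slides at 0.26, 0.45 and 0.49 in their deviations, and were treated as paired in alternative fits. No isotig identifier matched the reference gene table, and sequences were not used here.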

Additional observations from a re-analysis of the deposited data

How the results depend on the processing

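Of 1116 values recomputed under alternatives, 22 changed sign, and none of those 22 passed an adjusted p of 0.01 in either fit. The 1040 classed as unchanged include values that crossed 2-fold. Counts at the adjusted p here are of the isotigs tested in a pair, and counts on a medium against MMN are out of all 4 isotigs. For pairs only described, differences are given without a count. MMN averaged per number over both slides put 3 over 2-fold on FH in place of 1. For MC against FH it put the peroxygenase, described only, under 2-fold, at 0.79. For CMC against FH it put the peroxygenase, at -0.43, under the adjusted p of 0.01. The haem peroxidase, described only in that pair, was at 0.48. For MH against FH, 2 were under the adjusted p of 0.01 in place of 1 in 4 alternatives. With the replicate block, without the dimmest 25% of isotigs, and with an intensity trend and robust variances, the added isotig was the peroxygenase. Under the block it was at 0.26, with an adjusted p of 0.0047 from limma. With only the groups compared in the fit, the haem peroxidase was no longer under the adjusted p of 0.01 for MC against FH. For CMC against MH, 0 was under it in place of 1 after a repeated quantile normalization. No count changed when arrays were centred on their medians, and the MMN number as a random block (estimated correlation 0.53) changed none for CMC against MMN and the 4 pairs across slides, for which it was run. An adjusted p of 0.05 was run together with the 2-fold threshold only and changed no such count. Leaving out both MMN arrays of a number, chosen after seeing the data as the random block was, gave 0 for CMC against MH with each number, 0 over 2-fold for MC against FH without number 1, and 3 over 2-fold on FH without number 3. Without number 2 it gave 1 in place of 2 at the adjusted p for MC against FH, 2 in place of 3 over 2-fold on MH and 2 in place of 3 calls for CMC against MMN.

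With each array left out in turn, the number over 2-fold was 1 to 3 on FH, 2 to 3 on MH and 4 on MC, and the calls for CMC against MMN were 2 to 3. At the adjusted p, MH against FH gave 1 to 2 and CMC against MH 0 to 1. For MC against FH the haem peroxidase lost its pass in 2 of 12 such fits. The peroxygenase difference of MC against FH, described only, ran from 0.93 to 1.10. Sign changes with MMN averaged per number were the peroxygenase on CMC against MMN at -0.07, and paxillus_3881 at -0.16 for MC against MH and -0.19 for CMC against MH. After the repeated quantile normalization the peroxygenase on CMC against MMN was 0.00 and paxillus_3882 for MC against MH 0.01. Without both MMN arrays of number 2 the same values were -0.01 and 0.03, and without number 3 paxillus_3882 for MC against MH was 0.01. With single arrays left out, paxillus_3881 ran from -0.06 to 0.27 for MC against MH, -0.08 to 0.24 for CMC against MH and -0.08 to 0.01 for CMC against MC. Likewise paxillus_3882 ran from -0.17 to 0.18 for MC against MH and -0.21 to 0.14 for CMC against MH, and the peroxygenase from -0.01 to 0.09 for CMC against MMN. The labels number FH, MH, MC and CMC cultures as they do MMN, but their deviations did not pair with MMN in every number (lowest correlation -0.28), and the replicate block changed no other count. The cause of these changes was not tested.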

Other observations

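MMN replicate 3, which had the highest level of all 4 isotigs on both slides, was also above the MMN mean of its slide for 154 of the 203 isotigs called higher on CMC on slide 1, and for 156 of them on slide 2. Of all 12214 isotigs it was above that mean for 5696 and 5479. Replicate 2 was above it for 43 and 46 of the 203, and for 6017 and 6354 of all isotigs. The calls on CMC were made against the MMN arrays of slide 2, and the MMN arrays of both slides are taken to hold the same cultures, so the slides are not independent of each other or of the calls.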
